A study of Bos taurus with 12 samples.

Results

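The lysosomal genes of the bovine corpus luteum were examined by RNA sequencing in control tissue and after prostaglandin F2α (PGF2α), the hormone that triggers regression of the corpus luteum. The genes were 35 named hydrolases, membrane proteins and granulin, together with every gene whose name begins with ATP6V or ATP6AP. Most of the latter encode subunits or accessory proteins of the vacuolar proton pump. These names matched 61 of the 27270 genes in the tables, and 55 of the 61 reached 10 counts in 4 or more of the 12 libraries, among 14481 genes that did so in the whole tables. The names were chosen by function and not by their values, but with earlier results of these data known.

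Whole corpora lutea came from 12 cows of mixed breed, synchronized to Day 10 of the cycle (mid-luteal phase). The groups were 4 cows injected i.m. with saline (control), 4 cows whose ovaries were removed 4 h after i.m. PGF2α and 4 cows at 12 h after PGF2α. Each cow gave 1 library of 10263310 to 22600213 expected counts, so the cow was the replicate (n = 4 per group). Cycles were synchronized with PGF2α in all cows, the controls included, according to the study's methods.

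Lysosomes are acidic organelles that break down proteins, glycans and lipids delivered by endocytosis, phagocytosis and autophagy. Their soluble hydrolases work at low pH, which is set by the V-ATPase, a proton pump with a membrane-embedded V0 sector that carries protons and a cytosolic V1 sector that hydrolyses ATP. In the corpus luteum, steroidogenic cells take up cholesterol from lipoproteins through this compartment, and in the regressing gland macrophages clear dying cells through theirs. RNA from whole tissue was measured, so fewer cells of a type and less RNA per cell cannot be told apart in any value below.

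At 12 h, most lysosomal proteases and membrane proteins rose on the count scale. The glycosidases and sulfatases and the proton pump subunits rose in shares near that of all genes. Fewer rises were called on the TPM scale, which is described below. Of the 55 genes, 25 rose and 5 fell at 12 h against control (edgeR, adjusted p under 0.05), where 23.6% of all genes tested rose and 25.3% fell. Their median log2 fold change was 0.37, beside 0.01 over all genes tested. In 20 genes all 12 h cows lay above all controls in TMM-scaled CPM, and in 5 below, beside 21% and 23% of all genes. TMM-scaled CPM are counts relative to a library total adjusted by TMM, so libraries need not share a total on this scale. At 4 h, 3 rose, CTSB, ATP6V0A1 and ATP6V1C1, and none of the 55 fell (6 passed an unadjusted p of 0.05, all 6 upward, and DESeq2 called 3 up and 0 down), where 8.65% of all genes rose and 5.59% fell. The median at 4 h was 0.05, beside -0.03 over all genes.

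Per length, the most abundant of the 55 transcripts in controls were PSAP (1469.9 ± 133 TPM), CD63 (1071 ± 96.4), CTSD (739 ± 63.1), LAPTM4A (643 ± 38.9) and LAMP1 (406 ± 52.8; SD, n = 4). TPM is a level per length, scaled to the same total in every library. The control ranges of CTSD and LAPTM4A overlapped, and those of the other neighbours in this order did not. All 61 genes found by name, those under the count minimum included, summed to 8982 ± 364 TPM in control tissue and to 10032 ± 423 and 10067 ± 337 after 4 h and 12 h. In TPM both treated groups were above the controls, 8606 to 9425, without overlap. The sums of TMM-scaled CPM were 9204 to 10784 in controls, 10779 to 12527 at 4 h and 11659 to 14634 at 12 h. On that scale 4 h overlapped with the controls, and 12 h lay above them.

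Between the treated groups, 22 of the 55 genes were higher and 5 lower at 12 h than at 4 h, beside 22.5% and 24.3% of all genes. This comparison tests the difference between the times itself, and it shares its libraries with the other comparisons. In all, 20 genes rose both against control and against 4 h, and the 5 that fell at 12 h also fell against 4 h. CTSD, HEXA, LAMP1 and LAMP2 rose against control but not against 4 h, CTSS and PPT1 rose against 4 h alone, and 21 genes were called in no comparison.

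**Figure D1:**
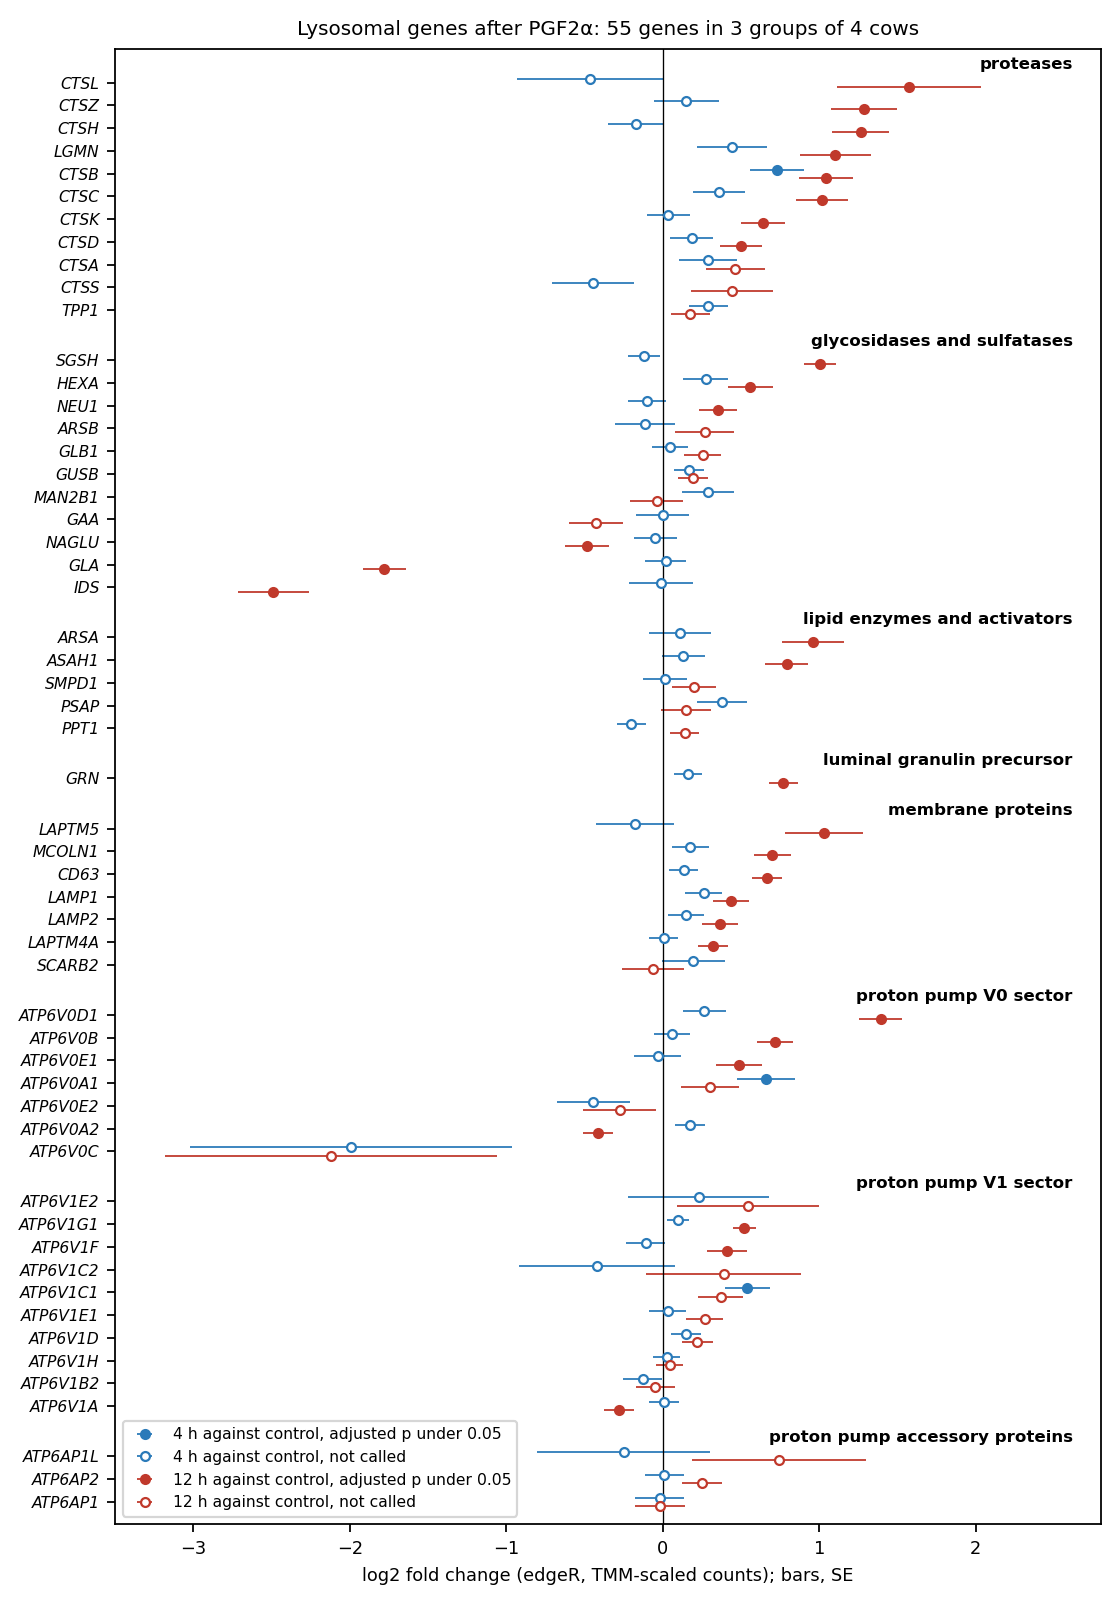
Log2 fold change of each of the 55 lysosomal genes at 4 h (blue) and 12 h (red) against control, with bars for the SE, filled where the adjusted p was under 0.05 and grouped by role. The red points of the proteases lie to the right of 0, from 0.18 for TPP1 to 1.57 for CTSL, while GLA at -1.78 and IDS at -2.49 lie far to the left among the glycosidases and sulfatases.

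The values depend on the scale. At 12 h the libraries held shorter transcripts (TPM-weighted mean length 1479 ± 69.7 bases, against 1682 ± 41.9 in controls and 1700.0 ± 54.2 at 4 h; SD, n = 4), and mitochondrially encoded transcripts took 11.6% ± 3.04 of the counts, against 8.94% ± 1.51 in controls. The median log2 fold change of all genes at 12 h was 0.01 on TMM-scaled counts and -0.25 on log2(TPM + 1), a scale on which the values of a library share 1 total. On log2(TPM + 1), 15 of the 55 genes rose and 10 fell at 12 h (limma), beside 10.4% and 38.9% of all genes. Those 15 were all among the 25 of the count scale, the 5 falls of the count scale were among the 10, and the median of the 55 genes was 0.06. Between the times, 10 genes were higher and 13 lower at 12 h than at 4 h on log2(TPM + 1), beside 9% and 35.9% of all genes. Fold changes below are on TMM-scaled counts unless TPM is named.

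**Figure D2:**
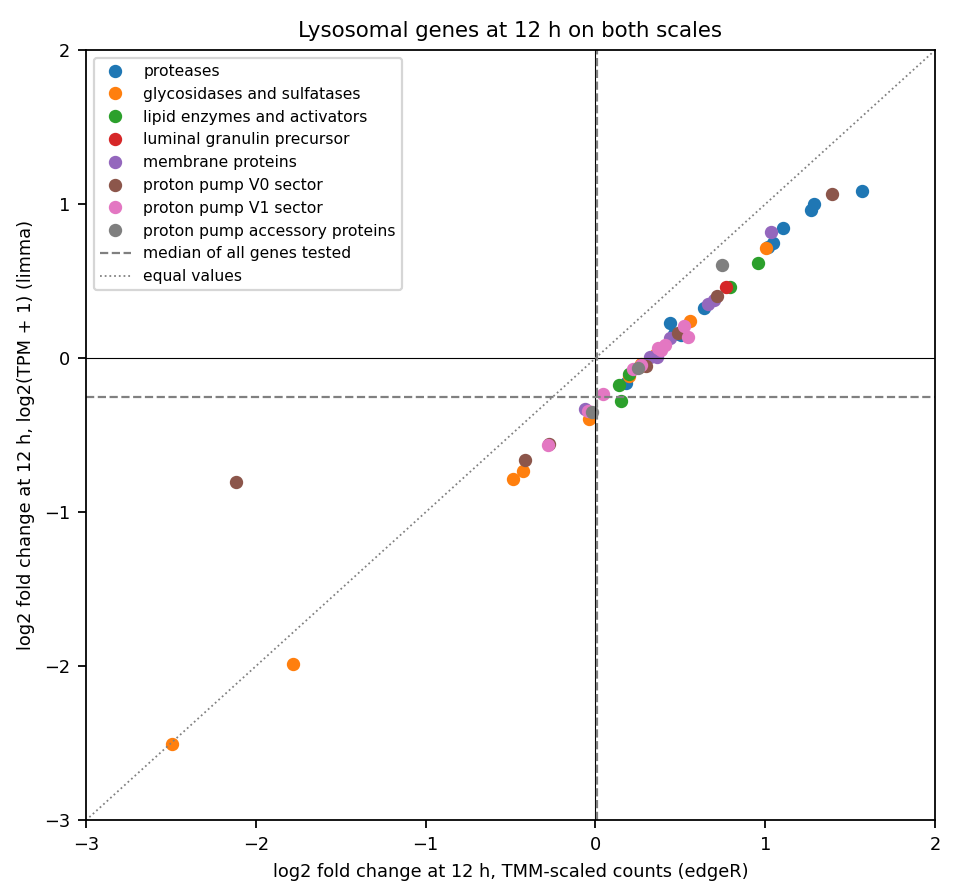
Log2 fold change at 12 h of each of the 55 genes on TMM-scaled counts (horizontal) and on log2(TPM + 1) (vertical), coloured by role, with dashed lines at the median of all genes tested on each scale and a dotted line for equal values. Most points lie below the dotted line, as the all-gene medians of 0.01 and -0.25 do, and GLA and IDS stand at the lower left on both scales.

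Among the 11 proteases, 8 rose at 12 h and none fell (of the other 3, CTSA passed an unadjusted p of 0.05, upward; DESeq2 called 9 up and 0 down), with a median log2 fold change of 1.02. Over all genes 23.6% rose and 25.3% fell at 12 h. The cysteine cathepsins CTSB, CTSC, CTSH, CTSK, CTSL and CTSZ, the asparaginyl endopeptidase legumain (LGMN), which processes cathepsins, and the aspartic protease CTSD were the 8 that rose. Of these, CTSB, CTSC, CTSH, CTSZ and LGMN were also called on log2(TPM + 1). Summed over the 11 genes, levels per length were 2012 ± 284 TPM in control tissue and 2391 ± 155 and 2769 ± 105 after 4 h and 12 h (SD, n = 4). The 4 sums at 12 h, 2627 to 2869.6, were above the 4 controls, 1819 to 2434.

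CTSB, an abundant cathepsin with both endopeptidase and exopeptidase activity, was the protease called at 4 h. The gene lies on chromosome 8, 7566095 to 7586862 (build ARS-UCD 1.2, as all positions here). It stood at 337, 363, 426 and 561 TMM-scaled CPM in the 4 controls, at 562, 661, 736 and 839 at 4 h and at 741, 813, 937 and 988 at 12 h. All treated cows lay above all controls, with mean increases of 1.66-fold at 4 h (log2 fold change 0.73, SE 0.17, adjusted p = 0.0165) and 2.06-fold at 12 h (log2 fold change 1.04, SE 0.18, adjusted p = 0.00044). The difference between the times was not called (log2 fold change 0.31, SE 0.17, adjusted p = 0.154). CTSH, an aminopeptidase, lies on chromosome 21, 25201460 to 25222224. Its transcript was at 59.5, 63.1, 68.2 and 103 TMM-scaled CPM in the 4 controls, at 59.9, 60.3, 66.9 and 74.7 at 4 h and at 153, 156, 170.2 and 229 at 12 h. At 12 h every cow stood above both other groups, which overlapped (log2 fold change 1.27, SE 0.18, adjusted p = 0.000156 at 12 h, and log2 fold change -0.17, SE 0.18, adjusted p = 0.578 at 4 h).

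CTSZ, a carboxypeptidase, lies on chromosome 13, 57379569 to 57390707. It was at 85.3, 118, 154 and 179 TMM-scaled CPM in the 4 controls, at 131, 144, 150.0 and 171 at 4 h and at 242, 309, 372 and 384 at 12 h. Again the 12 h cows were above all the others (log2 fold change 1.28, SE 0.21, adjusted p = 0.000381). CTSC, which activates serine proteases of granulocytes and lymphocytes, was at 86.2, 99.2, 115 and 153 TMM-scaled CPM in the 4 controls, at 128, 133, 149.6 and 172 at 4 h and at 201, 209, 246 and 263 at 12 h. Its 12 h values did not overlap with either group (log2 fold change 1.02, SE 0.17, adjusted p = 0.000393), while 4 h and control overlapped (log2 fold change 0.36, SE 0.17, adjusted p = 0.173). LGMN, on chromosome 21, 57379063 to 57414855, rose 12 h after PGF2α by 2.15-fold in the mean (log2 fold change 1.10, SE 0.23, adjusted p = 0.00165). In controls, cow6464 had the highest level of CTSB, CTSC, CTSH, CTSZ and LGMN. Without that cow CTSC (0.56, adjusted p = 0.0296) and LGMN (0.71, adjusted p = 0.0364) were also called at 4 h.

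CTSD was the most abundant protease transcript, with 739 ± 63.1 TPM in controls. It stood at 733, 806, 903 and 953 TMM-scaled CPM in the 4 controls, at 842, 911, 1020.4 and 1086 at 4 h and at 965, 1190.2, 1283 and 1368 at 12 h. The 12 h group was above the controls and overlapped with 4 h (log2 fold change 0.50, SE 0.14, adjusted p = 0.00881). On log2(TPM + 1) the change was 0.15 (limma, adjusted p = 0.227). CTSK, the collagen-degrading cathepsin of osteoclasts, rose (log2 fold change 0.64, SE 0.14, adjusted p = 0.0023) and was likewise not called on TPM (0.33, adjusted p = 0.136). CTSL had the largest protease fold change on counts (log2 fold change 1.57, SE 0.46, adjusted p = 0.0137) from the lowest protease level, 10.4 ± 4.54 TPM in controls, with overlapping groups at 12 h. It was not called on TPM (1.09, adjusted p = 0.0671), and reads from its close relative CTSV could be split between both genes.

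The other 3 proteases were not called against control. TPP1, a tripeptidyl peptidase, was at 91.0, 94.8, 102 and 114 TMM-scaled CPM in the 4 controls, at 104, 109, 122 and 157 at 4 h and at 107, 111, 117 and 119 at 12 h. Its groups overlapped at both times (log2 fold change 0.18, SE 0.12, adjusted p = 0.258 at 12 h), and with an offset for transcript length it was called higher (0.34, adjusted p = 0.0387). CTSA, which protects NEU1 and GLB1 in a complex, did not pass at 12 h (0.46, SE 0.19, adjusted p = 0.0577). It was called without cow6314 (0.61, adjusted p = 0.0189), without cow6464 (0.61, adjusted p = 0.0262) and without cow6456 (0.50, adjusted p = 0.0325). CTSS, a cathepsin of antigen-presenting cells, was higher at 12 h than at 4 h (log2 fold change 0.89, SE 0.26, adjusted p = 0.0152) but not than control (0.44, SE 0.26, adjusted p = 0.18). Its highest control value was in cow6464, and without that cow its change at 12 h was called (0.82, adjusted p = 0.00652).

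**Figure D3:**
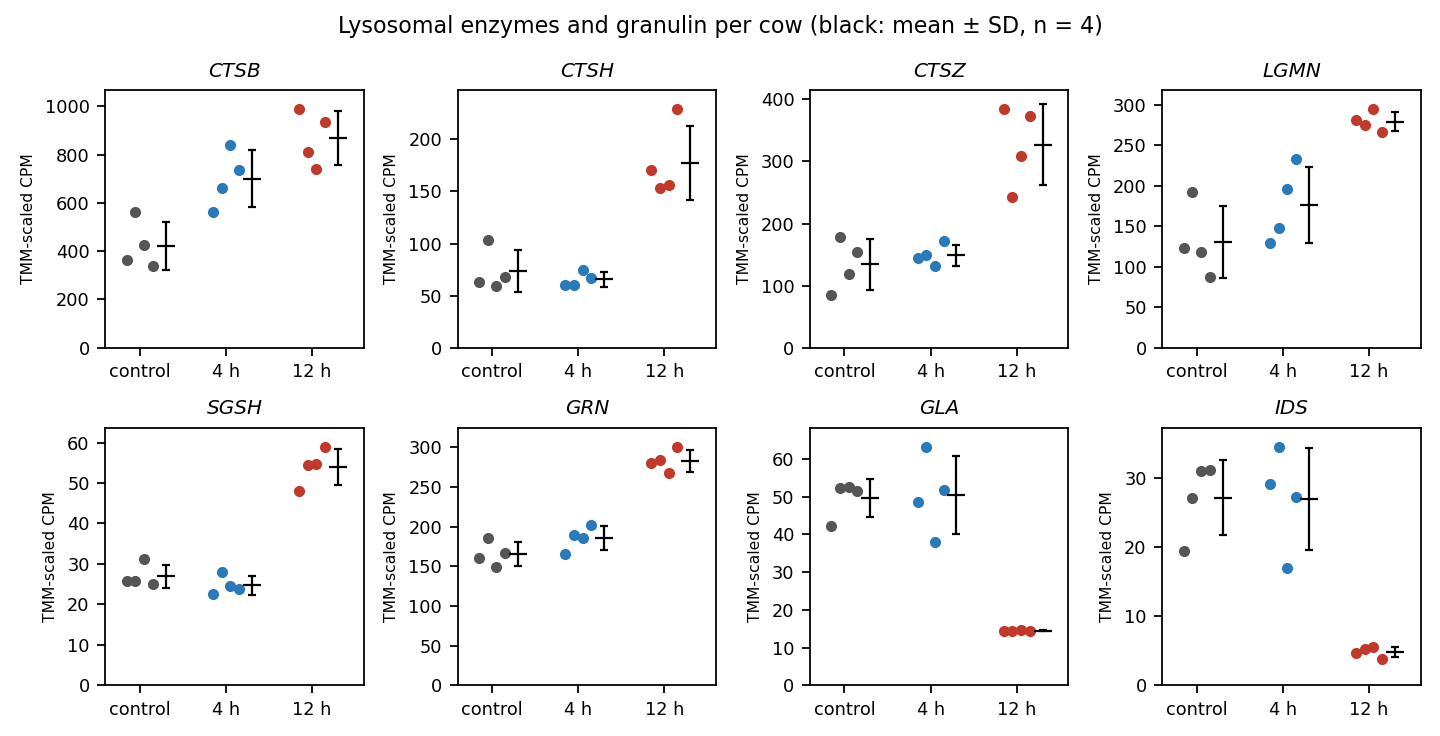
TMM-scaled CPM of CTSB, CTSH, CTSZ, LGMN, SGSH, GRN, GLA and IDS in each of the 12 cows by group (points), with the mean ± SD of 4 cows in black. For CTSB both treated groups lie above the controls, for CTSH, CTSZ, LGMN, SGSH and GRN the 12 h cows alone do, and for GLA and IDS the 12 h cows lie below all others.

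Of the 11 glycosidases and sulfatases, 3 rose at 12 h (SGSH, HEXA and NEU1), 3 fell (GLA, IDS and NAGLU) and 5 were not called, with a median log2 fold change of 0.20. These counts are near the 23.6% that rose and the 25.3% that fell among all genes. None of the 11 was called at 4 h (edgeR; 0 at an unadjusted p of 0.05, and 0 by DESeq2). Their summed level was 657 ± 36.7 TPM in control tissue and 698 ± 56.3 and 548 ± 10.2 after 4 h and 12 h (SD, n = 4). The 12 h sums of 533 to 556 TPM lay below the control range of 636 to 712. On the TPM scale all genes together had a median of -0.25, and the sum of TMM-scaled CPM was 1025 in controls and 1056 at 12 h.

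The falls of IDS and GLA were the largest among the 30 changes called at 12 h. IDS, the sulfatase that removes sulfate from iduronate in dermatan and heparan sulfate, lies on chromosome X, 31991465 to 32006656. Its transcript was at 19.5, 27.0, 31.0 and 31.1 TMM-scaled CPM in the 4 controls, at 16.9, 27.3, 29.2 and 34.5 at 4 h and at 3.87, 4.65, 5.30 and 5.47 at 12 h. The 12 h cows were far below the others, with a mean ratio to control of 0.177 (log2 fold change -2.49, SE 0.23, adjusted p = 1.11e-05). GLA, α-galactosidase A, which degrades globotriaosylceramide, lies on chromosome X, 50803846 to 50814062. It stood at 42.2, 51.5, 52.4 and 52.6 TMM-scaled CPM in the 4 controls, at 38.0, 48.6, 51.7 and 63.2 at 4 h and at 14.4, 14.4, 14.5 and 14.6 at 12 h. Its 12 h values were also all below those of every other cow (log2 fold change -1.78, SE 0.14, adjusted p = 5.47e-06). At 4 h neither had moved beyond its error (IDS -0.01, SE 0.21, and GLA 0.02, SE 0.13). Both falls were called in every fit, on log2(TPM + 1) as -2.50 and -1.98.

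SGSH, the sulfamidase of heparan sulfate, lies on chromosome 19, 52424174 to 52431354. It was at 24.9, 25.7, 25.7 and 31.2 TMM-scaled CPM in the 4 controls, at 22.6, 23.9, 24.4 and 28.0 at 4 h and at 48.0, 54.4, 54.6 and 58.9 at 12 h. All 12 h cows lay above the rest (log2 fold change 1.01, SE 0.10, adjusted p = 1.91e-05). NAGLU, the N-acetylglucosaminidase of heparan sulfate, was lower at 12 h (log2 fold change -0.48, SE 0.14, adjusted p = 0.0123). HGSNAT, the membrane acetyltransferase of the same route and not among the 55 genes, was lower at 12 h (log2 fold change -0.78, SE 0.10, adjusted p = 6.14e-05). HEXA, the α subunit of β-hexosaminidase, was at 81.7, 102, 105 and 109 TMM-scaled CPM in the 4 controls, at 102, 106, 136 and 136 at 4 h and at 123, 129, 164 and 170.3 at 12 h. Its 12 h cows lay above the controls and overlapped with 4 h (log2 fold change 0.56, SE 0.14, adjusted p = 0.00673, and 0.24 on log2(TPM + 1), adjusted p = 0.111).

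NEU1, the lysosomal sialidase, rose by a smaller step (log2 fold change 0.36, SE 0.12, adjusted p = 0.0282), which was lost on TPM (0.03, adjusted p = 0.826), with the length offset (0.28, adjusted p = 0.0703) and without cow7514 (0.36, adjusted p = 0.0521), cow5266 (0.22, adjusted p = 0.11) or cow7382 (0.32, adjusted p = 0.0745). GUSB, β-glucuronidase, was at 113, 128, 129 and 142 TMM-scaled CPM in the 4 controls, at 139, 139.6, 147 and 150.2 at 4 h and at 126, 145, 154 and 161 at 12 h. The groups overlapped (log2 fold change 0.20, SE 0.09, adjusted p = 0.107), and GUSB was called higher without cow6314 (0.30, adjusted p = 0.0135). MAN2B1, the lysosomal α-mannosidase, had the highest level of this group, 138 ± 19.8 TPM in controls. It was at 233, 282, 308 and 355 TMM-scaled CPM in the 4 controls, at 277, 378, 389 and 396 at 4 h and at 219.6, 271, 309.9 and 347 at 12 h. Its groups overlapped too (log2 fold change -0.04, SE 0.17, adjusted p = 0.863). On log2(TPM + 1) it was called lower (-0.39, adjusted p = 0.0254), as was the acid α-glucosidase GAA (-0.73 on log2(TPM + 1), adjusted p = 0.00117, and -0.43 on counts, adjusted p = 0.0556). On counts GAA was called lower without cow5266 (-0.56, adjusted p = 0.0208) and by DESeq2. The β-galactosidase GLB1 (0.26, SE 0.12) and the arylsulfatase ARSB (0.27, SE 0.19) did not pass the test at 12 h. GLB1 was called without cow5341 (0.29, adjusted p = 0.0295), cow6456 (0.29, adjusted p = 0.0489) or cow6314 (0.34, adjusted p = 0.0423), and ARSB with the length offset (0.44, adjusted p = 0.0483).

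Of the 5 enzymes and activators of lipid breakdown, ASAH1 and ARSA rose at 12 h and the other 3 did not pass the test. Over all genes 23.6% rose and 25.3% fell. ASAH1, the acid ceramidase, lies on chromosome 27, 19211654 to 19243281. Its transcript was at 88.8, 96.2, 101 and 115 TMM-scaled CPM in the 4 controls, at 107, 109, 109.8 and 114 at 4 h and at 136, 149.6, 199 and 209.8 at 12 h. Every 12 h value was above all others (log2 fold change 0.79, SE 0.14, adjusted p = 0.000515). ARSA, the sulfatase of sulfatides, was at 10.2, 11.9, 12.2 and 12.4 TMM-scaled CPM in the 4 controls, at 9.83, 10.0, 13.0 and 17.7 at 4 h and at 17.2, 20.8, 25.1 and 27.8 at 12 h. Its 12 h values were above the controls and overlapped with 4 h (log2 fold change 0.96, SE 0.20, adjusted p = 0.00174).

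PSAP, the precursor of the saposins that present sphingolipids to their hydrolases, was the most abundant of the 55 transcripts per length, with 1469.9 ± 133 TPM in control tissue and 1895 ± 257 and 1213 ± 137 after 4 h and 12 h (SD, n = 4). Scaled by TMM, it was at 1823, 1867, 2174 and 2379.5 TMM-scaled CPM in the 4 controls, at 2302, 2339, 2872 and 3196 at 4 h and at 1821, 2167, 2548 and 2601 at 12 h. Neither difference from control was called (log2 fold change 0.38, SE 0.16, adjusted p = 0.136 at 4 h, and log2 fold change 0.15, SE 0.16, adjusted p = 0.463 at 12 h). On log2(TPM + 1), 12 h was lower than 4 h (-0.64, adjusted p = 0.00117), which was not called on counts (log2 fold change -0.23, SE 0.16, adjusted p = 0.253).

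PPT1, the thioesterase that removes palmitate from proteins, was at 104, 105, 111 and 116 TMM-scaled CPM in the 4 controls, at 90.3, 91.5, 95.2 and 102 at 4 h and at 100.4, 120.1, 126 and 134 at 12 h. All 4 h cows lay below the controls without a call (log2 fold change -0.20, SE 0.09, adjusted p = 0.171). At 12 h it was higher than 4 h (log2 fold change 0.34, SE 0.09, adjusted p = 0.00986), a call lost without cow7475 (0.26, adjusted p = 0.055). SMPD1, the acid sphingomyelinase, was at 46.0, 49.1, 55.8 and 68.3 TMM-scaled CPM in the 4 controls, at 49.9, 54.2, 55.8 and 61.2 at 4 h and at 53.8, 55.2, 69.7 and 73.2 at 12 h. Its groups overlapped (log2 fold change 0.20, SE 0.14, adjusted p = 0.251 at 12 h). GRN, the precursor of the luminal granulins, lies on chromosome 19, 44149003 to 44156201. It stood at 149.8, 161, 167 and 186 TMM-scaled CPM in the 4 controls, at 166, 186, 189 and 202 at 4 h and at 267, 280.0, 284 and 301 at 12 h. It rose at 12 h in all 4 cows (log2 fold change 0.77, SE 0.09, adjusted p = 4.48e-05), a 1.71-fold increase in the mean that was called in every fit, and 4 h overlapped with control (log2 fold change 0.16, SE 0.09, adjusted p = 0.263).

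Of the 7 lysosomal membrane proteins, 6 rose at 12 h and SCARB2, the receptor that carries glucocerebrosidase, did not pass the test (-0.06, SE 0.20, adjusted p = 0.816). Over all genes 23.6% rose and 25.3% fell. The 7 membrane proteins had a median log2 fold change of 0.44. None was called at 4 h (edgeR; 1 at an unadjusted p of 0.05, LAMP1, upward, and 0 by DESeq2). CD63, a tetraspanin, was the most abundant, with 1071 ± 96.4 TPM in controls. It was at 481, 484, 488 and 545 TMM-scaled CPM in the 4 controls, at 502, 543, 571 and 576 at 4 h and at 726, 747, 827 and 869.7 at 12 h. Its level at 12 h was above both other groups (log2 fold change 0.67, SE 0.09, adjusted p = 0.000146).

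MCOLN1, the calcium channel TRPML1, was at 46.5, 48.2, 48.9 and 55.4 TMM-scaled CPM in the 4 controls, at 46.6, 57.8, 58.6 and 62.3 at 4 h and at 69.0, 73.4, 89.2 and 92.1 at 12 h. It showed the same order, with 12 h apart from the rest (log2 fold change 0.70, SE 0.12, adjusted p = 0.000452). LAPTM5, a transmembrane protein of blood cells, was at 72.7, 78.6, 134 and 192 TMM-scaled CPM in the 4 controls, at 99.3, 104, 108 and 111 at 4 h and at 209, 229, 263 and 274 at 12 h. The 12 h cows were higher (log2 fold change 1.03, SE 0.25, adjusted p = 0.00479), and cow6464 had the highest control value. LAMP1, a heavily glycosylated protein that lines the membrane, was at 418, 524, 529 and 589 TMM-scaled CPM in the 4 controls, at 597, 605, 632 and 633 at 4 h and at 595, 689, 731 and 773 at 12 h. Both treated groups lay above the controls, with a call at 12 h (log2 fold change 0.44, SE 0.12, adjusted p = 0.00836) and none at 4 h (log2 fold change 0.26, SE 0.12, adjusted p = 0.16).

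LAMP2 (log2 fold change 0.36, SE 0.11, adjusted p = 0.0189) and LAPTM4A (log2 fold change 0.32, SE 0.10, adjusted p = 0.0144) rose by smaller steps. Their changes on log2(TPM + 1) were both 0.01, that of LAMP1 was 0.13 (adjusted p = 0.273), and none of these 3 was called on that scale, while CD63 (0.35), MCOLN1 (0.38) and LAPTM5 (0.82) were. Without cow5266, cow7382 or cow7475 the calls of LAMP2 (0.33, adjusted p = 0.0569, 0.32, adjusted p = 0.0596 and 0.29, adjusted p = 0.0778) and LAPTM4A (0.28, adjusted p = 0.053, 0.27, adjusted p = 0.0604 and 0.29, adjusted p = 0.0534) were lost, and that of LAPTM4A also with the length offset (0.20, adjusted p = 0.0741).

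Of 20 pump genes that passed the count minimum, 2 rose at 4 h, and 5 rose and 2 fell at 12 h, with a median log2 fold change of 0.28 at 12 h. The rises are near the shares of all genes, 8.65% at 4 h and 23.6% at 12 h, and the falls at 12 h are below the 25.3% of all genes. Of 7 V0 genes 3 rose (ATP6V0D1, ATP6V0B and ATP6V0E1) and 1 fell (ATP6V0A2), of 10 V1 genes 2 rose (ATP6V1G1 and ATP6V1F) and 1 fell (ATP6V1A), and the 3 accessory genes were not called (edgeR; 0 at an unadjusted p of 0.05, and 0 by DESeq2). Summed over all V0 genes found by name, levels were 717 ± 62.4 TPM in controls and 996 ± 104 at 12 h, and the ranges did not overlap. For all V1 genes found by name the sums were 769.5 ± 36.5 and 754 ± 28.1 TPM, with overlapping ranges.

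ATP6V0D1, the d subunit that couples the rotor to the V1 stalk, lies on chromosome 18, 35046554 to 35085645. It was at 146, 169, 183 and 189.5 TMM-scaled CPM in the 4 controls, at 187, 190.1, 214 and 235 at 4 h and at 366, 406, 484 and 552 at 12 h. In TPM it went from 193 in controls to 406 at 12 h, the largest step of the V0 genes. All 12 h values were far above the others, a 2.63-fold increase in the mean (log2 fold change 1.39, SE 0.14, adjusted p = 1.74e-05), called in every fit and 1.07 on log2(TPM + 1). ATP6V0B, a proteolipid of the c ring, was at 94.0, 105, 106 and 111 TMM-scaled CPM in the 4 controls, at 103, 109, 109 and 114 at 4 h and at 130.3, 174, 186 and 194 at 12 h. Its 12 h values were above the rest as well (log2 fold change 0.72, SE 0.11, adjusted p = 0.00031). ATP6V0E1, the e subunit, with the highest V0 level (235 ± 34.6 TPM in controls), was at 86.6, 92.8, 117 and 118 TMM-scaled CPM in the 4 controls, at 96.8, 101, 102 and 106 at 4 h and at 105, 139.7, 163 and 174 at 12 h. These groups overlapped (log2 fold change 0.49, SE 0.15, adjusted p = 0.0172). The call was lost on TPM (0.17, adjusted p = 0.279), with the length offset (0.30, adjusted p = 0.0975), without cow5266 (0.37, adjusted p = 0.0596) and without cow7475 (0.42, adjusted p = 0.0543).

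The a subunits direct the pump to different membranes. ATP6V0A1 was at 66.9, 67.9, 78.0 and 83.1 TMM-scaled CPM in the 4 controls, at 93.7, 108, 111 and 155 at 4 h and at 60.3, 94.5, 102 and 108 at 12 h. All 4 h cows were above all controls (log2 fold change 0.66, SE 0.19, adjusted p = 0.0341), while 12 h overlapped with both (log2 fold change 0.30, SE 0.19, adjusted p = 0.201). The 4 h call was lost when any control, cow5341 or cow6455 was left out, with the largest adjusted p without cow5341 (0.51, adjusted p = 0.0927). Without cow6314 the gene was also called at 12 h (0.49, adjusted p = 0.019). ATP6V0A2 was at 32.1, 32.9, 33.8 and 37.5 TMM-scaled CPM in the 4 controls, at 33.3, 37.3, 39.5 and 43.6 at 4 h and at 22.9, 25.4, 26.8 and 27.0 at 12 h. The 12 h cows were below all others (log2 fold change -0.41, SE 0.10, adjusted p = 0.0041), a call lost with an offset for transcript length (-0.23, adjusted p = 0.052). ATP6V0E2, the other e subunit, did not pass on counts (-0.27, SE 0.23) and was lower on log2(TPM + 1) (-0.56, adjusted p = 0.03).

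The gene named ATP6V0C in the tables, the main c ring proteolipid by name, is uncertain. It lies on chromosome 8, 17434137 to 17435288, a span of 1152 bases, while RefSeq (assembly ARS-UCD 2.0) places ATP6V0C beside AMDHD2 and TBC1D24, which the tables have on chromosome 25. Its level was 3.57 TPM in the mean of the 12 cows, low beside the 196 TPM of ATP6V0B. It was at 0.169, 0.591, 1.77 and 15.8 TMM-scaled CPM in the 4 controls, at 0.520, 0.992, 1.53 and 1.66 at 4 h and at 0.273, 1.06, 1.47 and 1.55 at 12 h. The highest value was cow6464, a control. The groups overlapped (log2 fold change -2.12, SE 1.06, adjusted p = 0.116), the change was called without cow7514 (-2.50, adjusted p = 0.0458), and whether these counts belong to the c subunit was not tested.

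Among the V1 genes, ATP6V1G1, a peripheral stalk subunit with the highest V1 level (191 ± 12.8 TPM in controls), was at 149.9, 159, 166 and 174 TMM-scaled CPM in the 4 controls, at 169, 173, 174 and 177 at 4 h and at 222, 230.0, 236 and 242 at 12 h. All 12 h cows were above the rest (log2 fold change 0.52, SE 0.07, adjusted p = 0.000132), a call kept in every fit. ATP6V1F, of the central rotor, was at 65.2, 73.9, 75.3 and 80.3 TMM-scaled CPM in the 4 controls, at 63.0, 65.3, 70.5 and 74.4 at 4 h and at 73.6, 97.9, 104 and 117 at 12 h. Its groups overlapped (log2 fold change 0.41, SE 0.13, adjusted p = 0.0175). The call was lost on TPM (0.09, adjusted p = 0.474), with the length offset (0.30, adjusted p = 0.0522), without cow5266 (0.30, adjusted p = 0.071) and without cow7382 (0.36, adjusted p = 0.0567). ATP6V1A, the catalytic subunit, was at 119, 138, 140.2 and 149 TMM-scaled CPM in the 4 controls, at 117, 142, 146 and 146 at 4 h and at 106, 113, 115 and 117 at 12 h. It was lower in all 12 h cows (log2 fold change -0.28, SE 0.10, adjusted p = 0.0281), with -0.56 on log2(TPM + 1) (adjusted p = 0.00075). It was not called with an offset for transcript length (-0.11, adjusted p = 0.39) or when any of 7 cows was left out, with adjusted p up to 0.0985 without cow6314.

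ATP6V1C1, which holds the stalk to the V0 sector, was at 56.0, 58.3, 65.7 and 74.1 TMM-scaled CPM in the 4 controls, at 76.1, 85.1, 85.4 and 123 at 4 h and at 74.6, 78.5, 85.9 and 89.8 at 12 h. Both treated groups lay above the controls. The call at 4 h (log2 fold change 0.54, SE 0.14, adjusted p = 0.0276) was lost without cow4285 (0.52, adjusted p = 0.0597), cow7367 (0.48, adjusted p = 0.08), cow7514 (0.57, adjusted p = 0.0588) or cow5341 (0.39, adjusted p = 0.0592). The change at 12 h just missed the threshold (log2 fold change 0.37, SE 0.15, adjusted p = 0.0504), which it passed when any of 5 cows was left out. ATP6V1D, of the rotor, was at 75.0, 83.9, 89.3 and 91.6 TMM-scaled CPM in the 4 controls, at 88.9, 90.7, 97.2 and 99.7 at 4 h and at 86.4, 95.6, 102 and 113 at 12 h. Its groups overlapped (log2 fold change 0.22, SE 0.10, adjusted p = 0.0749), and it was called without cow6314 (0.32, adjusted p = 0.0154). ATP6V1B2, ATP6V1C2, ATP6V1E1, ATP6V1E2 and ATP6V1H were not called either, from -0.05 for ATP6V1B2 to 0.55 for ATP6V1E2 at 12 h. Of these ATP6V1E1 (0.27, SE 0.12) was called higher without cow5341 (0.31, adjusted p = 0.0494) or cow6314 (0.41, adjusted p = 0.00509), and ATP6V1B2 was lower on log2(TPM + 1) (-0.34, adjusted p = 0.0253).

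The accessory proteins help assemble the pump. ATP6AP1 was at 214, 229, 258 and 323 TMM-scaled CPM in the 4 controls, at 224, 245, 253 and 289 at 4 h and at 189, 256, 264 and 303 at 12 h. Its groups overlapped (log2 fold change -0.02, SE 0.16, adjusted p = 0.936). On log2(TPM + 1) it was lower at 12 h (-0.35, adjusted p = 0.0416). ATP6AP2, the prorenin receptor, was at 191, 212, 216 and 252 TMM-scaled CPM in the 4 controls, at 196, 211, 230.3 and 240.4 at 4 h and at 200.3, 271, 281 and 285 at 12 h. Again the groups overlapped (log2 fold change 0.25, SE 0.13, adjusted p = 0.12), and it was called without cow6314 (0.40, adjusted p = 0.00801). ATP6AP1L was at 11.3, 19.7, 29.6 and 64.2 TMM-scaled CPM in the 4 controls, at 12.3, 18.7, 23.3 and 50.1 at 4 h and at 28.2, 29.5, 68.1 and 80.8 at 12 h. The spread was wide within every group (log2 fold change 0.74, SE 0.55, adjusted p = 0.285), and without cow4285 it was called higher (1.39, adjusted p = 0.0475).

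**Figure D4:**
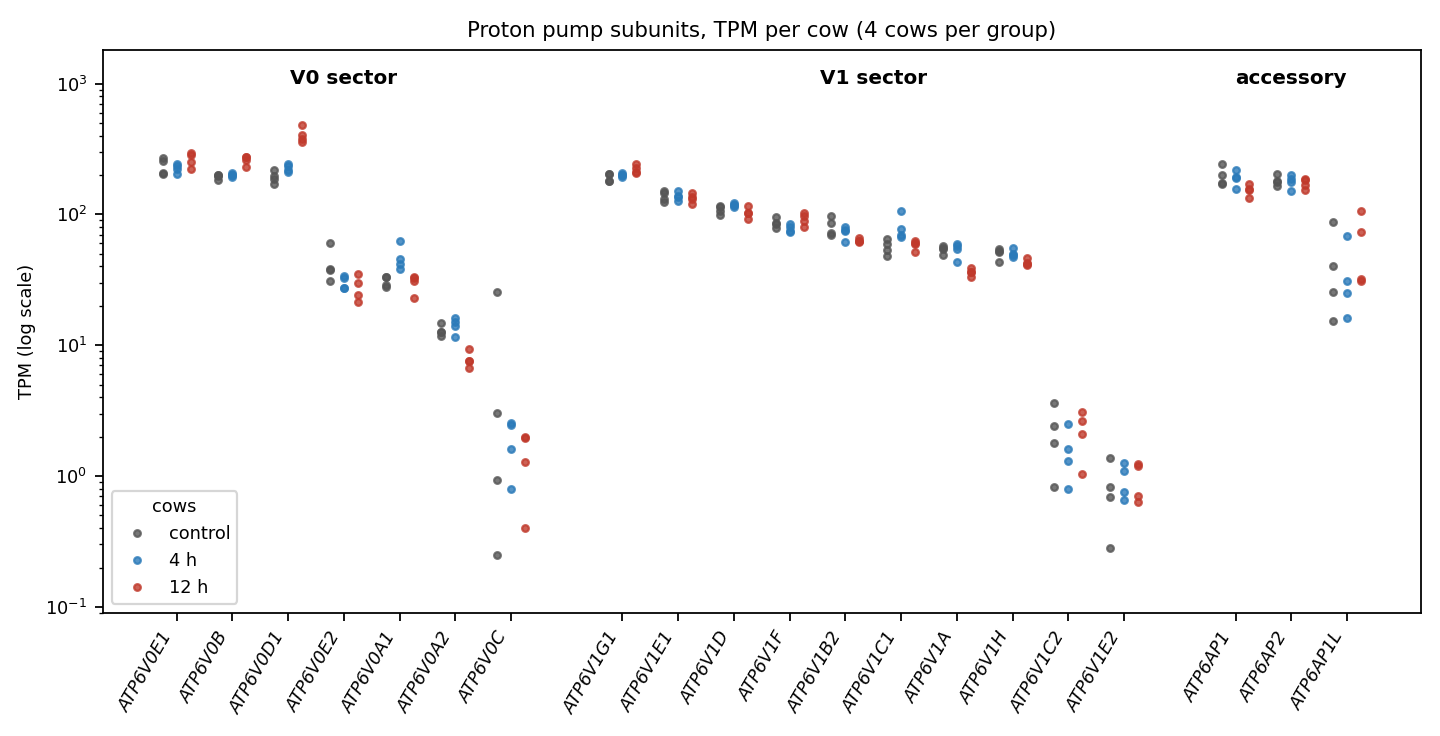
TPM (log scale) of the 20 proton pump genes that passed the count minimum, 1 point per cow, in control (grey), 4 h (blue) and 12 h (red) tissue, by sector. ATP6V0D1 at 12 h stands above its other values and ATP6V0A2 and ATP6V1A at 12 h below theirs, while ATP6V0C, ATP6V1C2 and ATP6V1E2 are lowest in group mean.

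Ratios of paired isoforms within a library do not depend on the scaling between libraries. For 5 pairs in which both genes passed the count minimum, 15 differences in mean log2 TPM ratio were tested (exact two-sided permutation test, 4 cows against 4, smallest p possible 0.0286), and none passed after adjustment. The ratio of ATP6V0E1 to ATP6V0E2 was 2.52 ± 0.34 in controls and 3.27 ± 0.14 at 12 h on the log2 scale (SD, n = 4), with groups apart (exact permutation p = 0.0286, adjusted p = 0.214). That of ATP6V0A1 to ATP6V0A2 was 1.25 ± 0.24 and 1.93 ± 0.44, with overlap (exact permutation p = 0.0857, adjusted p = 0.214). TCIRG1, a further a subunit, does not carry an ATP6V name and was counted with the other membrane proteins. Its ratio to ATP6V0A1 was -1.01 ± 0.43 in controls and -0.96 ± 0.43 at 12 h, with overlap (exact permutation p = 0.914, adjusted p = 0.98).

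Of the 61 genes found by name, 6 were under the count minimum. Over all 12 libraries together, ATP6V0A4, an a subunit of kidney cells, had 104 counts, ATP6V0D2, the d subunit of osteoclasts, 87, ATP6V1G2 46 and ATP6V1B1, the B subunit of kidney cells, 14, while ATP6V1G3 and ATP6V1FNB had none. ATP6V1FNB is a neighbour gene of ATP6V1F and not a subunit. Just inside the minimum was ATP6V1E2, which reached it in 6 libraries with 115 counts in all. ATP6V1C2 reached it in all 12 with 390 counts. Their SEs of 0.45 and 0.49 leave changes of that size undetectable.

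Genes beside the 55 in the same pathway were taken from lists by function. Their counts stand beside 23.6% of all genes that rose at 12 h and 25.3% that fell. Of 26 other hydrolases and activators 6 rose, near that share, and 4 fell, below it, with the prenylcysteine oxidase PCYOX1 (log2 fold change -1.76, SE 0.17, adjusted p = 1.56e-05), HGSNAT and the GM2 activator GM2A (log2 fold change -0.80, SE 0.14, adjusted p = 0.00058) lower and the acid deoxyribonuclease DNASE2 (log2 fold change 0.76, SE 0.10, adjusted p = 8.66e-05) higher. Of 22 other membrane proteins and transporters 8 rose and 2 fell, led by the chloride-proton exchanger CLCN7 (log2 fold change 0.85, SE 0.09, adjusted p = 2.24e-05), its partner OSTM1 (0.68, SE 0.12), LAPTM4B (1.25, SE 0.17) and the cholesterol carrier NPC2 (0.63, SE 0.11). Of 11 genes that sort enzymes to lysosomes 5 rose and 2 fell, among them GNPTG (0.81, SE 0.13) and GNPTAB (0.57, SE 0.10), subunits of the phosphotransferase that makes the mannose 6-phosphate tag, NAGPA (0.75, SE 0.12), which uncovers it, and the adaptor GGA2 (0.47, SE 0.09). OSTM1, GNPTAB and GGA2 were not called on log2(TPM + 1). At 4 h, 0 of the 26 hydrolases (4 at an unadjusted p of 0.05, and DESeq2 called 2 up and 0 down) and 0 of the 11 sorting genes (0 unadjusted and 0 by DESeq2) were called by edgeR, and of the 22 membrane proteins 2 rose and 1 fell.

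Of 8 genes for assembly and regulation of the pump, 2 rose and 4 fell at 12 h. Over all genes 23.6% rose and 25.3% fell. The falls included DMXL1 (-1.76, SE 0.20), DMXL2 (-1.60, SE 0.13) and WDR7 (-1.44, SE 0.18), which form the complex that joins V1 to V0. Over all alternatives other than leaving out single cows these ranged from -2.01 to -1.32, -1.82 to -1.16 and -1.71 to -1.22. VMA21, an assembly factor of V0 in the endoplasmic reticulum, rose (log2 fold change 0.49, SE 0.09, adjusted p = 0.000727) and was not called on log2(TPM + 1).

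The cystatins, which inhibit cysteine cathepsins, were counted in 4 rows that passed the count minimum. All 4 rose at 12 h, beside 23.6% of all genes, namely CST3, CST6 and 2 rows that share the name CSTB. The more abundant CSTB row was at 95.7, 101, 108 and 109 TMM-scaled CPM in the 4 controls, at 144, 147, 156 and 179.7 at 4 h and at 365, 391, 435 and 447 at 12 h. Its 12 h cows were far above the others (log2 fold change 1.98, SE 0.10, adjusted p = 3.10e-07), and the row passed the test at 4 h too (log2 fold change 0.60, SE 0.10, adjusted p = 0.00204). CST3 (log2 fold change 0.99, SE 0.18, adjusted p = 0.000829) and CST6 (log2 fold change 1.18, SE 0.26, adjusted p = 0.00237) rose at 12 h. Reads of the rows that share the name CSTB could be split between them.

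The MiT/TFE factors are transcription factors of lysosomal genes, and of their 4 transcripts 1 rose at 4 h, and 1 rose and 1 fell at 12 h. The 12 h counts are near the shares of all genes, 23.6% that rose and 25.3% that fell. At 4 h 8.65% of all genes rose. TFE3 was at 73.0, 74.1, 74.8 and 75.4 TMM-scaled CPM in the 4 controls, at 100.4, 106, 115 and 125 at 4 h and at 71.2, 80.7, 83.7 and 84.1 at 12 h. All 4 h cows lay above all controls (log2 fold change 0.59, SE 0.09, adjusted p = 0.000914). The 12 h level was lower than at 4 h (log2 fold change -0.48, SE 0.09, adjusted p = 0.000721) and did not pass the test against control (log2 fold change 0.10, SE 0.09, adjusted p = 0.334). MITF was lower at 12 h (log2 fold change -1.41, SE 0.30, adjusted p = 0.00204). TFEC, a family member of macrophages, was higher (log2 fold change 1.24, SE 0.43, adjusted p = 0.0324) at a low level of 2.70 TMM-scaled CPM in controls and 6.50 at 12 h. This call was lost without cow4285, cow7367, cow7514, cow5266, cow6314 or cow7382 (adjusted p up to 0.0785). TFEB did not pass (log2 fold change 0.28, SE 0.13, adjusted p = 0.0988).

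Markers of the cells in the tissue moved in the same libraries. Their counts at 12 h, here and in the next paragraph, stand beside 23.6% of all genes that rose and 25.3% that fell. The 12 markers of macrophages and monocytes, cells rich in lysosomes, summed to 153 to 480.3 TMM-scaled CPM in controls, 214 to 408 at 4 h and 489 to 667 at 12 h. None was at 0 in all libraries. At 12 h 7 rose with none falling (8 at an unadjusted p of 0.05; DESeq2 called 8 up and 0 down), such as TYROBP (log2 fold change 1.84, SE 0.30, adjusted p = 0.000333) and CD14 (log2 fold change 1.52, SE 0.23, adjusted p = 0.000254). Cow6464, with the highest control sum, also had the highest control value of 18 of the 55 genes. Cow6456, with the highest sum at 4 h (408), was highest for 17, and cow6314, highest at 12 h (667), for 4. The part of macrophages in the rises was not tested.

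The 6 markers of steroidogenic luteal cells summed to 21883 to 34652 TMM-scaled CPM in controls, 18440.5 to 22787 at 4 h and 6272 to 13860.3 at 12 h. Of the 6, 5 fell at 12 h, such as STAR (-2.49, SE 0.37) and HSD3B1 (-3.15, SE 0.25). The remaining marker, OXT, which encodes the precursor of oxytocin, lay higher without a call (log2 fold change 0.67, SE 0.27, adjusted p = 0.057), and was called higher than at 4 h (log2 fold change 0.79, SE 0.27, adjusted p = 0.0294), by DESeq2 against control and without cow6314. The 6 neutrophil markers tested summed to 10.9 to 39.9 TMM-scaled CPM in controls, 36.4 to 77.2 at 4 h and 40.8 to 114 at 12 h, and 4 rose at 12 h. Of the markers of other cells, 2 of 7 endothelial genes rose and 1 fell at 12 h. Rises were called in 2 of 6 fibroblast, 1 of 6 pericyte, 1 of 9 T and NK lymphocyte and 1 of 1 erythrocyte genes. Only that 1 of 3 erythrocyte genes found passed the count minimum. The erythrocyte sum was low, 0.0932 to 1.35 TMM-scaled CPM in controls and 1.05 to 4.92 at 12 h. The endothelial, fibroblast, pericyte and lymphocyte counts are near or below the 23.6% of all genes that rose and the 25.3% that fell. Of the 9 T and NK lymphocyte markers only 2 had a positive log2 fold change. Their median was -0.40, and DESeq2 called 1 up and 2 down. In cow6314 of the 12 h group the steroidogenic sum was the lowest of all (6272) and the pericyte and smooth muscle sum the highest (4402, against 711 to 1973 in the other 11 cows). Without it 33 of the 55 genes rose and 4 fell at 12 h, where 3610 of the 14481 genes tested rose and 3355 fell. The rising markers in that fit were 0 of pericytes, 1 of fibroblasts, 1 of endothelial cells and 3 of neutrophils. The part of these cells in the values above was not tested.

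**Figure D5:**
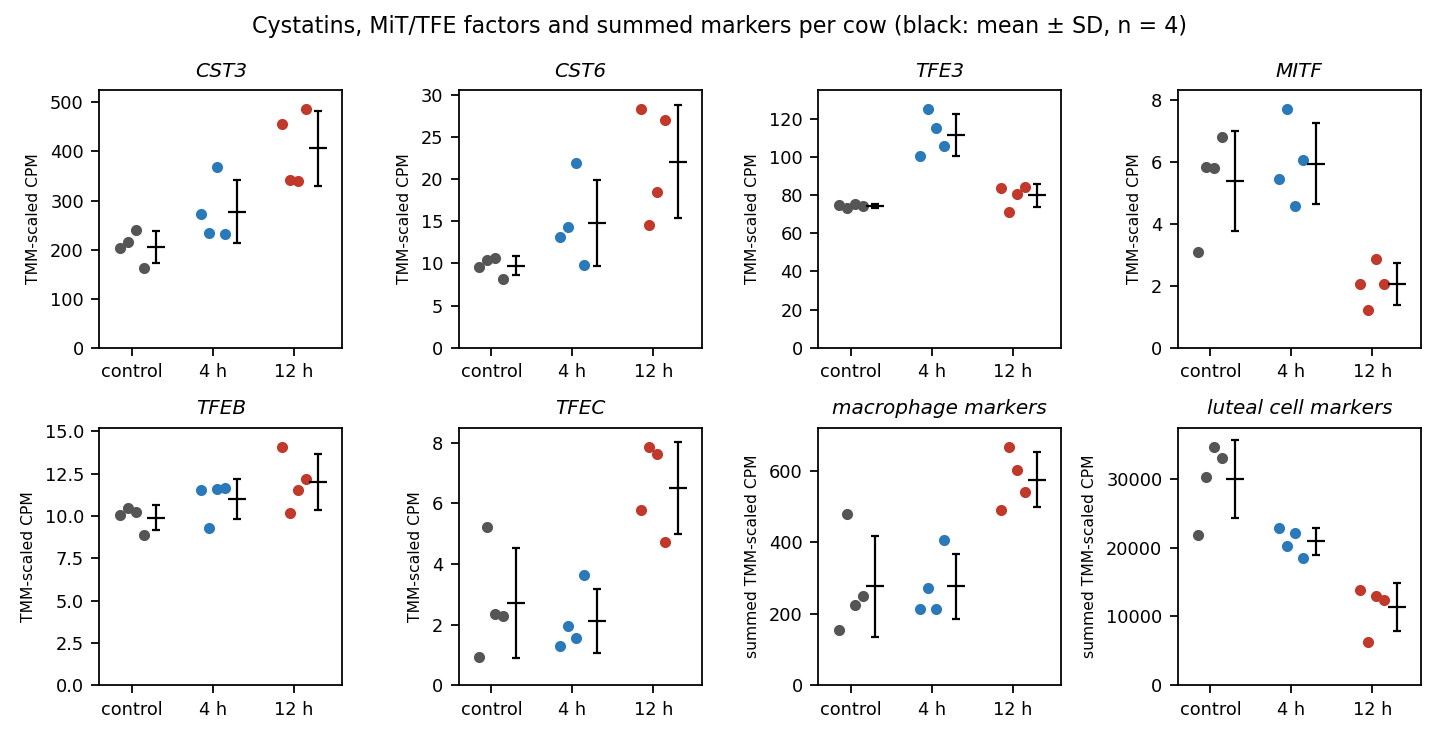
TMM-scaled CPM of CST3, CST6, TFE3, MITF, TFEB and TFEC, and the summed TMM-scaled CPM of 12 macrophage and 6 luteal cell markers, in each cow by group (points), with the mean ± SD of 4 cows in black. TFE3 is highest at 4 h, the cystatins and macrophage markers at 12 h, and MITF and the luteal cell markers are lowest at 12 h.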

How the data were processed

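RNA of whole corpora lutea was measured in 12 libraries, 1 per cow. For every cow the authors deposited a table of 27270 genes. It holds the expected count (an estimate of reads that need not be whole), TPM, FPKM and transcript length of each gene, and the submitters' processing notes name STAR 2.5, RSEM 1.3 and the genome build ARS-UCD 1.2. The role and order of the tools, the sequencer, the read length and the strand setting were not given in the sources used here. The deposited TPM and FPKM values were scaled per library by the authors, so those of 1 library share a total, and the deposited lengths are the authors' values per gene. Total expected counts per library ranged from 10263310 to 22600213.

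Expected counts were rounded, genes that reached 10 counts in 4 or more libraries were kept (14481 genes), and libraries were scaled by TMM. One edgeR 4.0.16 quasi-likelihood model held all 3 groups, with Benjamini-Hochberg adjustment over all genes of a comparison and a threshold of 0.05. Adjusted p values come from this model unless another tool is named. Isoform ratios were compared by exact two-sided permutation tests. In simulated data with 200 changed genes in the comparison of 12 h with control, over 14481 genes, edgeR recovered 72% of changes of 1 and 97% of changes of 2 on the log2 scale, with 5 false calls. The real comparison called 7081 genes and had shorter transcripts at 12 h, which the simulation did not include. Its numbers therefore do not give the power or error of the real comparison. SEs include the spread between cows and counting error.

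The genes, lists and alternatives were chosen with earlier results of these data known. Values per cow are given for, in each role group, up to 4 genes with the smallest p at 12 h, up to 2 with the smallest p at 4 h and the gene with the highest control TPM, with other members named by their fold change, and of the other lists up to 4 genes with the smallest p at 12 h are named. OXT was named after its values were seen. Symbols of all 61 genes were found in RefSeq (assembly ARS-UCD 2.0), whose positions were used only to find the neighbours of ATP6V0C. No 2 libraries of a group agreed within counting noise. DESeq2 1.42.0, limma 3.58.1 on log2(TPM + 1) and log2(TPM + 0.1), RLE scaling, other count minimums, a length offset (spline, 5 degrees of freedom), a table without mitochondrially encoded genes, fits of the 2 groups compared and fits without cows were the alternatives. The motif search in promoters was not run. The analysis ran in R 4.3.3 and in Python 3.11.15 with numpy 2.4.6, pandas 2.3.3, matplotlib 3.10.9 and scipy 1.17.1.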

Additional observations from a re-analysis of the deposited data

Results flagged for a closer look

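In 4 of 165 groups of 4 cows tested, 1 cow lay far from the other 3 in TPM (by Dixon's gap over range), and chance flags about 1 in 20 groups. CTSB was at 502 TPM in cow7382 of the 12 h group and at 622 to 641 in the other 3. GUSB was at 90.7 TPM in cow7475 of the 12 h group and at 83.5 to 84.4 in the others. LAPTM5 was at 123 TPM in cow5266 of the 12 h group and at 165 to 169 in the others. ATP6V0C was at 25.6 TPM in cow6464, a control, and at 0.25 to 3.04 in the other controls.

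The effect at 12 h differed from that at 4 h, by the test of 12 h against 4 h, in 22 genes that were higher and 5 that were lower at 12 h. Higher at 12 h were 7 proteases, 2 glycosidases and sulfatases, 3 lipid enzymes and activators, 1 granulin precursor, 4 membrane proteins, 3 V0 genes and 2 V1 genes. Lower at 12 h were 3 glycosidases and sulfatases, 1 V0 gene and 1 V1 gene.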

How the results depend on the processing

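On log2(TPM + 1) and on log2(TPM + 0.1) alike (limma), 15 genes rose and 10 fell at 12 h, and 10 were higher and 13 lower at 12 h than at 4 h. With the length offset 3 fell at 12 h (ATP6V0A2 and ATP6V1A were lost), and among the rises TPP1 and ARSB were gained and NEU1, LAPTM4A, ATP6V0E1 and ATP6V1F lost. In each case the cause was not tested. With each cow left out in turn, the numbers that rose and fell were 1 to 4 and 0 to 0 at 4 h, 20 (without cow5266) to 33 (without cow6314) and 4 to 6 at 12 h, and 19 to 26 and 3 (without cow6456) to 6 for 12 h against 4 h. The 1 at 4 h, CTSB, came without cow4285, cow7367, cow7514 or cow5341. Over 3621 values of single genes under all alternatives, 3435 kept their side of the threshold, 106 lost a call and 78 gained one. The other 2 were called in the opposite direction, both GUSB at 12 h against 4 h, at -0.25 on log2(TPM + 1) and -0.26 on log2(TPM + 0.1). The 3435 include values without a call whose direction changed. At 12 h against control, PSAP was 0.15 on counts and -0.28 on log2(TPM + 1), and TPP1 0.18 and -0.16. Called in every fit were 1 rise at 4 h, 15 rises and 3 falls at 12 h, and 10 and 3 changes between the times. The isoform ratios moved by less than 1 SD under FPKM, TMM-scaled CPM per length, medians and each cow left out, with no p computed there. No paired analysis was possible because the groups share no replicate numbers. Genes of few counts, such as ATP6V1E2, have SEs that hide changes of their own size.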
